A study of Mus musculus with 10 samples.

Results

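Primitive endoderm genes were followed as 9 of the 24386 genes in nascent RNA of mouse embryonic stem cells. The 9 were the rows named Gata6, Gata4, Sox17, Sox7, Pdgfra, Dab2, Lama1, Lamb1 and Col4a1, found in all 10 samples. They were chosen by name, with earlier results of these data known. The question was whether cells moved towards this lineage while Xist, the RNA that silences an X chromosome, was being induced. TX1072 cells are a female hybrid line with 1 chromosome set of Mus musculus castaneus (Cast) and 1 of C57BL/6 (B6), labelled wild type, in which doxycycline (DOX) switches on Xist from the B6 X chromosome. Cells grew on gelatin in serum with LIF and 2i (the MEK inhibitor PD0325901 and the GSK3 inhibitor CHIR99021), were plated 24 h before DOX at 1 µg/ml, and were taken at 0, 4, 8, 12 and 24 h with 2 replicates each. RNA made during 5 min of labelling with 4-thiouridine (4sU) was sequenced (transient transcriptome sequencing, TT-seq). No sample received DOX without inducible Xist, so hours of DOX, of Xist RNA and of culture cannot be told apart. The labels do not say whether replicates came from separate cultures, and p-values measure only the spread between these samples.

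The primitive endoderm is the layer that separates from the pluripotent epiblast in the blastocyst and later forms the visceral and parietal endoderm of the yolk sac. FGF4 from epiblast precursors acts through FGF receptors and ERK on neighbouring cells, where GATA6 and then SOX17, GATA4 and SOX7 come on and NANOG goes down. These cells carry PDGFRA, use the adaptor DAB2 to sort receptors into endocytic vesicles, and lay down a basement membrane of laminin and type IV collagen. Embryonic stem cells keep the epiblast identity, and MEK inhibition blocks the FGF signal towards endoderm.

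Promoters are shown first for the 3 members that later differed between the alleles and between replicate series and were in the promoter table used here. Promoters of 4 of the 9 members, Pdgfra among them, were matched in the RefSeq (GRCm38.p6) table used here, with 2 starts for Dab2. Each line gives the 250 bases before the start, 5′ to 3′ on the gene's own strand. Capitals mark matches to a GATA motif, searched on both strands as the letters GATA with A or T just before and A or G just after. The Dab2 upstream promoter lies at chr15:6299539-6299788 and the Dab2 internal promoter at chr15:6386498-6386747, both on the plus strand. The Col4a1 promoter lies at chr8:11312827-11313076 on the minus strand and the Lamb1 promoter at chr12:31265043-31265292 on the plus strand.
Dab2 upstream: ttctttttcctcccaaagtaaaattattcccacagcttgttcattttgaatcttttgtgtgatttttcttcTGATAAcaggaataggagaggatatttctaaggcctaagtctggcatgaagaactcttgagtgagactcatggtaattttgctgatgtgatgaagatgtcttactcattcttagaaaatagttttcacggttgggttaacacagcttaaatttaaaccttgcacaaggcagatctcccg
Dab2 internal: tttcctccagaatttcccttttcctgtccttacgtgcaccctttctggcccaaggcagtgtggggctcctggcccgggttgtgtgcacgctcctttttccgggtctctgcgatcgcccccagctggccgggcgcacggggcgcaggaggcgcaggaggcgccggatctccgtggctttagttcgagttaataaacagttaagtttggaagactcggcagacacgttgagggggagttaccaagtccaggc
Col4a1: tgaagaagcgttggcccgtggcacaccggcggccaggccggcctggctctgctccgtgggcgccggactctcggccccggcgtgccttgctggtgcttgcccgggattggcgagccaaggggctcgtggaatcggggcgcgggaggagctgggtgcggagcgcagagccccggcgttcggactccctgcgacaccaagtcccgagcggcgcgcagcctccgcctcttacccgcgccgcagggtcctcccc
Lamb1: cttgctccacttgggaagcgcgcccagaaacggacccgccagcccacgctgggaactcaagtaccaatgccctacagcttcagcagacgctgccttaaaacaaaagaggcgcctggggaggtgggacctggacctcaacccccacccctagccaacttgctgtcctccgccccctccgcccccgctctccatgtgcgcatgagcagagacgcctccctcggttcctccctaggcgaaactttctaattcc

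The Dab2 upstream promoter held 1 GATA match (TGATAA), and no match lay in the other 4 member promoters, that of Pdgfra included. Of all 32851 promoters of this length, 26.5% held at least 1 match, and a match in letters is not a site of binding. The 2 Dab2 starts lie 86959 bases apart and differ in base composition. The upstream one had a GC content of 36.8% with 2 CpG dinucleotides, and the internal one had 60.0% with 17. The Col4a1 promoter had a GC content of 74.4% with 31 CpG, and that of Lamb1 62.0% with 14. Col4a1 and its partner Col4a2 are transcribed away from each other, and their annotated spans overlap at the starts by 22 bases.

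Total nascent counts ran from 18809046 to 22274929 per sample, so that 3 counts, the limit that a count of 0 allows, correspond to 0.135 to 0.159 CPM (a count scaled to the library's total). Allelic reads were 49.2% to 52.8% of the total. Xist stood at 1.41 and 1.53 CPM before DOX and rose to between 329 and 664 CPM with it. Genes of naive embryonic stem cells, the cell type of the label, were abundant in every sample, at 2800 to 3080 CPM summed over 10 genes. Sox2 was listed at 0 there, and its row overlaps Sox2ot on the same strand.

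The 4 lineage transcription factors had 2 to 35 counts each in every one of the 10 samples. Together they gave 2.04 to 2.92 CPM, with 2.14 and 2.92 CPM before DOX and 2.24 and 2.87 CPM after 24 h. The zinc finger factor Gata6, which starts the lineage, had 22 and 11 counts before DOX (0 h), 6 and 10 counts at 4 h, 14 and 4 counts at 8 h, then 11 and 9 counts at 12 h and finally 9 and 14 counts at 24 h. The spread between its replicates was as wide as that between times. The related factor Gata4, which follows it, had 28 and 21 counts before DOX (0 h), 28 and 22 counts at 4 h, 35 and 29 counts at 8 h, then 26 and 26 counts at 12 h and finally 24 and 35 counts at 24 h. Scaled to depth, it lay at 1.34 and 0.958 CPM before DOX and at 1.22 and 1.57 CPM after 24 h, and these samples overlapped.

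The HMG-box factor Sox17 had 9 and 7 counts before DOX (0 h), 4 and 8 counts at 4 h, 4 and 2 counts at 8 h, then 4 and 7 counts at 12 h and finally 3 and 2 counts at 24 h. Its counts were too low for the filter that the other 8 members passed. Fitted with no filter on low counts, the change of Sox17 from 0 to 24 h was -1.59 on the log2 scale (edgeR, adjusted p = 0.581). Its relative Sox7 had 2 and 8 counts before DOX (0 h), 9 and 8 counts at 4 h, 7 and 5 counts at 8 h, then 13 and 10 counts at 12 h and finally 8 and 13 counts at 24 h. The lowest Sox7 value, 2 counts, was 0 h replicate 1.

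The growth factor receptor Pdgfra had 27 and 17 counts before DOX (0 h), 20 and 22 counts at 4 h, 18 and 14 counts at 8 h, then 23 and 16 counts at 12 h and finally 18 and 24 counts at 24 h. Its range at 0 h enclosed both values at 24 h. The endocytic adaptor Dab2 had 155 and 242 counts before DOX (0 h), 138 and 194 counts at 4 h, 133 and 221 counts at 8 h, then 161 and 211 counts at 12 h and finally 144 and 239 counts at 24 h. In each pair the second value, replicate 2, was the higher one.

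The matrix genes were transcribed at a much higher rate. Lama1, the alpha chain of laminin-111, had 6903 and 6575 counts before DOX (0 h), 5981 and 6021 counts at 4 h, 7256 and 6515 counts at 8 h, then 7501 and 7396 counts at 12 h and finally 6677 and 7949 counts at 24 h. Lamb1, its beta chain, had 980 and 1132, 855 and 1080, 1031 and 1024, 944 and 1167, and 981 and 1214 counts in the same order of times. Col4a1, a chain of type IV collagen, had 1151 and 973, 977 and 818, 1185 and 881, 976 and 890, and 1013 and 981. The 3 together gave 396 to 455 CPM and so made up nearly all of the 410 to 470 CPM of the 9 genes.

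**Figure D1:**
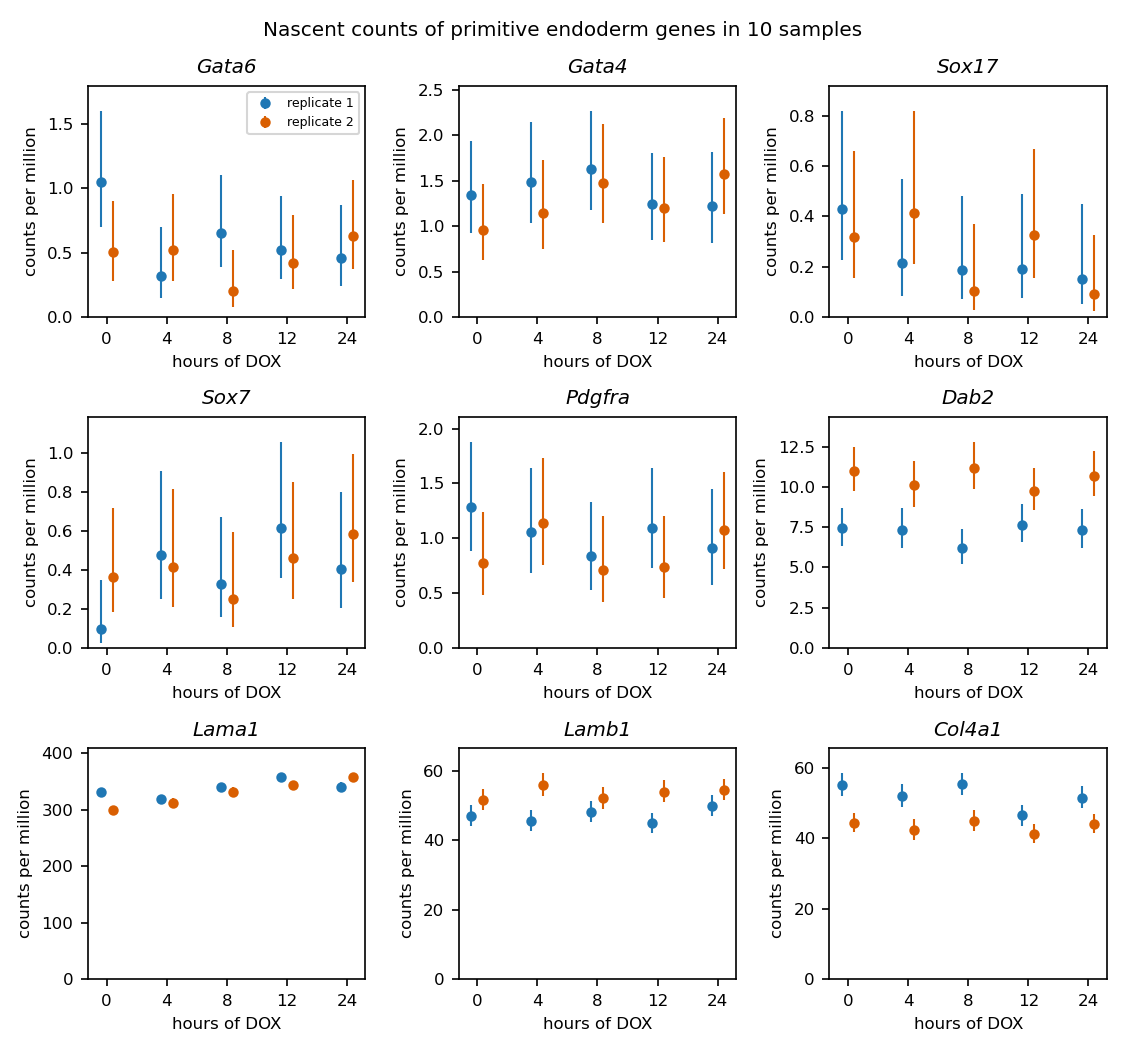
CPM (vertical axis, from 0, scaled per gene) against hours of DOX for the 9 genes; points are samples coloured by replicate and bars are 95% Wilson intervals of the count. The 4 transcription factors and Pdgfra stay under 2 CPM, and replicate 2 lies above replicate 1 for Dab2 and Lamb1 and below it for Col4a1 at 5 of 5 times.

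Levels of different genes were compared as CPM per kilobase of gene span, averaged over the 10 samples. Lama1 was highest at 2.65, followed by Lamb1 at 0.783 and Col4a1 at 0.417, and then Dab2 at 0.063. The ranges of these neighbours did not overlap. Below Dab2 came Sox7 at 0.057, Sox17 at 0.0377, Gata4 at 0.0286, Pdgfra at 0.021 and Gata6 at 0.0159. From Dab2 down, each gene overlapped the next in its range over samples, so neighbours in this order are not resolved. The range of Dab2, 0.0441 to 0.0798, lay wholly above those of Gata4 (highest 0.0353), Pdgfra (0.0281) and Gata6 (0.0318). The Dab2 span begins at its upstream start, its level per kilobase depends on that choice, and which start was in use was not tested. Among all genes Lama1 stood at the 86th percentile of this level and Gata6 at the 38.6th, with 19.6% of genes at 0 in every sample. On the same scale Nanog, the epiblast factor opposed to Gata6, was at 42.1, the naive factor Zfp42 at 27.9 and Pou5f1 at 24.1.

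**Figure D2:**
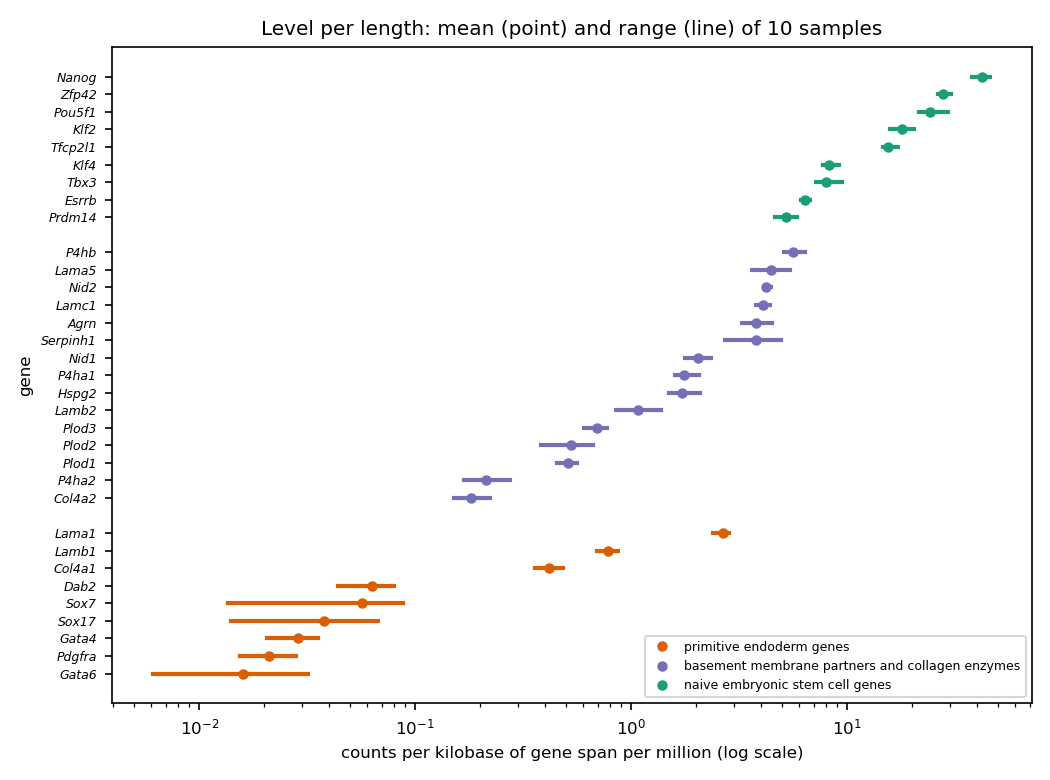
CPM per kilobase of gene span (horizontal log axis) for primitive endoderm genes, basement membrane partners with collagen enzymes, and naive embryonic stem cell genes; points are means and lines are the range of 10 samples. All 9 naive genes with counts, at 5.23 or more, lie above every primitive endoderm gene, and Dab2, the receptor and the transcription factors lie at 0.063 or below.

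None of the 8 tested members passed an adjusted p of 0.05 (edgeR quasi-likelihood test, adjusted over 14525 genes) at any time against 0 h. Of all tested genes, 2 were called after 4 h (0.0138%), 28 after 8 h (0.193%), 138 after 12 h (0.95%) and 269 after 24 h (1.85%), and 181 (1.25%) in the test of any change over time. The members are all autosomal. Of 14019 tested autosomal genes, 1 was called after 4 h, 0 after 8 h, 24 after 12 h (0.171%) and 77 after 24 h (0.549%). For any change over time it was 37 (0.264%). With the replicate number as a block the backgrounds over all tested genes were 5, 108, 718, 773 and 889 genes and the count of members called was again 0. DESeq2 and limma-voom also called 0 members. An unadjusted p under 0.05 was reached by 0 members at 4 and 8 h, by Sox7 and Lama1 at 12 h and by Lama1 at 24 h, against 304, 589, 1673 and 1495 genes of all tested at the 4 times. The median log2 change of the 8 members ran from 0.01 at 12 h to 0.05 at 8 h, and that of all tested genes was within 0.01 of 0.

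The well-covered genes had narrow intervals of change. At 24 h the log2 change of Lama1 was 0.16 (SE 0.0703, 95% interval 0.01 to 0.31, adjusted p = 0.458), after 0.20 at 12 h (SE 0.0703, adjusted p = 0.257). Lama1 lay at 331 and 300 CPM before DOX, against 340 and 357 CPM after 24 h, and these samples did not overlap. For Lamb1 the change at 24 h was 0.10 (95% interval -0.15 to 0.34) and for Col4a1 -0.04 (-0.31 to 0.22). The interval for Dab2 ran from -0.60 to 0.56 around -0.02. The steady gap between replicates enters these widths, and with the replicate block the intervals at 24 h were -0.30 to 0.25 for Dab2, -0.06 to 0.25 for Lamb1, -0.19 to 0.11 for Col4a1 and 0.02 to 0.29 for Lama1. For these 4 genes a doubling of nascent RNA by 24 h lay outside the interval in both fits.

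For the rarely read genes the intervals were wide in both fits. The log2 change of Gata6 at 24 h was -0.48 (95% interval -1.54 to 0.58), which in folds is 0.345 to 1.5. That of Gata4 was 0.30 (-0.32 to 0.93) and that of Pdgfra -0.03 (-0.76 to 0.71). Sox7 had the widest interval at 24 h, 1.09 (-0.16 to 2.34, adjusted p = 0.548), after 1.24 at 12 h (0.01 to 2.47, adjusted p = 0.401). Without 0 h replicate 1 the Sox7 change was 0.44 at 24 h and 0.59 at 12 h, so the size of its estimate rests on that sample with 2 counts. A rise of Sox7 up to 5.06-fold was within its interval.

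**Figure D3:**
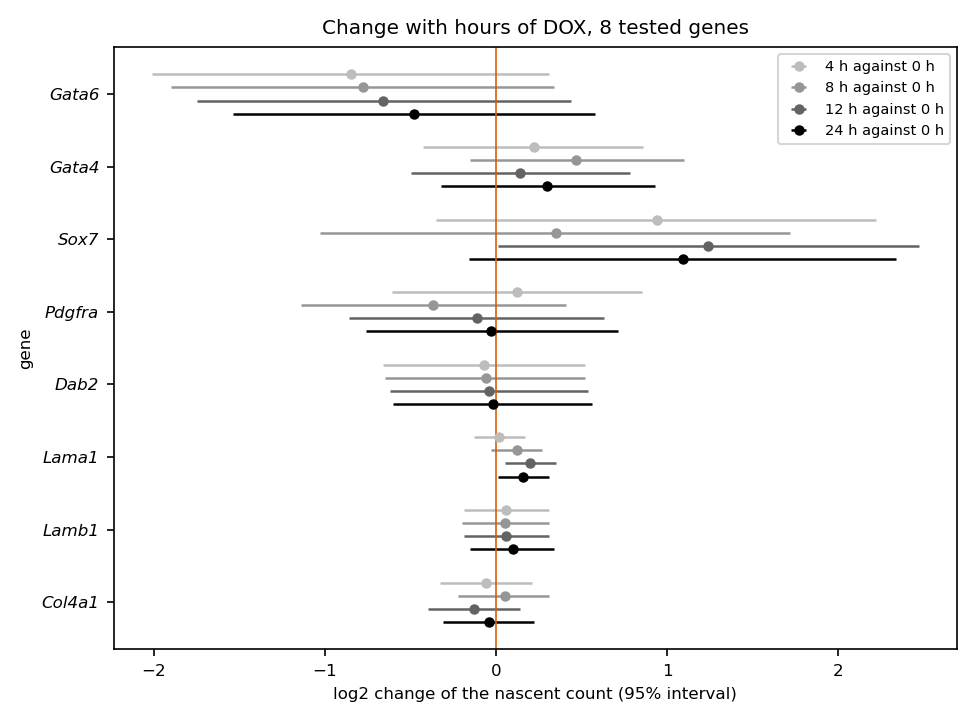
Log2 change of the nascent count against 0 h (horizontal axis) with 95% intervals for the 8 tested genes, at 4, 8, 12 and 24 h from light to dark. Intervals of the matrix genes are narrow and near 0 and those of Gata6 and Sox7 span more than 2 log2 units; no gene passed the adjusted threshold, although 3 intervals, Lama1 at 12 and 24 h and Sox7 at 12 h, exclude 0.

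The replicate series were compared as 5 samples against 5, and each time as 2 against 2, so counts of calls from them are not alike. Among all tested genes too, calls between replicates (11.7%) outnumbered those at 24 h (5.32% with the replicate block). In a fit with time and replicate terms, 3 of 8 members passed an adjusted p of 0.05 between replicate 2 and replicate 1, against a background of 11.7% of all tested genes. Dab2 was at 6.21 to 7.66 CPM in the 5 samples of replicate 1 and at 9.77 to 11.2 CPM in those of replicate 2. It was higher in replicate 2 at 5 of 5 times, by 0.57 on the log2 scale (SE 0.0876, edgeR adjusted p = 1.32e-05), or 1.47-fold. Leaving out each sample in turn gave 0.50 to 0.63.

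The chains of the matrix did not move together between the series. Lamb1 was at 44.9 to 49.9 CPM in replicate 1 and 51.6 to 56.0 in replicate 2, a difference of 0.21 on the log2 scale (SE 0.0486, edgeR adjusted p = 0.00393). Col4a1 went the other way, from 46.5 to 55.3 CPM down to 41.2 to 44.8, a difference of -0.24 (SE 0.0476, edgeR adjusted p = 0.000468). Col4a2, whose product joins that of Col4a1 in the collagen trimer and which was named after its values were seen, was also lower in replicate 2 at 5 of 5 times, by -0.23 (SE 0.0601, edgeR adjusted p = 0.00899). Of the 15 basement membrane partners and collagen enzymes, 7 were called between the series, against 11.7% of all tested genes. Of these, 6 were lower and 1 was higher in replicate 2. Among the lower ones were Hspg2 (-0.18, edgeR adjusted p = 0.0049), Agrn (-0.14, adjusted p = 0.036) and Serpinh1 (-0.19, adjusted p = 0.0443). The laminin chain genes Lama5 (-0.31, edgeR adjusted p = 1.65e-06) and Lamb2 (-0.35, adjusted p = 0.00191) were lower, against the direction of Lamb1, and Plod2 was higher (0.39, adjusted p = 2.73e-06). For Lama1 the difference was -0.02 (95% interval -0.11 to 0.06). The other 4 tested members had intervals that included 0, from -1.02 to 0.25 for Gata6 to -0.55 to 0.83 for Sox7.

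A minimum of 10 allelic reads per sample left 4 members for a test of alleles, Lama1, Lamb1, Col4a1 and Dab2. All 4 gave fewer B6 than Cast reads over the 10 samples (adjusted p from 6.36e-17 to 6.16e-15, edgeR quasi-likelihood test chosen after the allelic counts were seen). Of all 11906 genes in that test 70% were called in either direction, so the calls themselves are common and the sizes carry the description. The middle of 11543 autosomal genes was a B6 fraction of 0.522, with quartiles of 0.479 and 0.567.

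Dab2 was read almost only from the Cast allele. B6 and Cast reads were 8 and 88 in 0 h replicate 1, 4 and 151 in 0 h replicate 2, 1 and 97 and then 2 and 116 at 4 h, and 0 and 80 and then 3 and 138 at 8 h. They were 4 and 87 and then 3 and 133 at 12 h, and 2 and 86 and then 2 and 132 at 24 h. The pooled B6 fraction was 0.0255 (95% Wilson interval 0.0178 to 0.0364, 29 of 1137 reads), and the log2 ratio of B6 to Cast was -5.32 (SE 0.312). The sample with 0 of 80 reads allows a fraction of up to 0.0458 by its Wilson interval. Of the autosomal genes, 36 (0.312%) had a mean fraction under 0.05.

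Neighbouring genes were skewed less. Within 1 Mb of Dab2, Rictor had a mean B6 fraction of 0.532 ± 0.00719 (SD, n = 10), Lifr 0.725 ± 0.0158 and Egflam 0.374 ± 0.0675. The excess of Dab2 in replicate 2 was seen on the Cast allele, where reads scaled to the library's Cast reads, as CPM is to its total, were 14.8 to 20.7 in replicate 1 and 23.2 to 28.1 in replicate 2. On the B6 allele there were 15 reads in all in replicate 1 and 14 in replicate 2, too few to compare.

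The matrix genes were skewed less far in the same direction. Their mean B6 fractions were 0.439 ± 0.00895 for Lama1, 0.344 ± 0.0107 for Lamb1 and 0.321 ± 0.0261 for Col4a1 (SD, n = 10), and each of their samples lay below the autosomal median. Col4a2, divergent from Col4a1, had 0.427 ± 0.023, and Dld, which lies just past the end of Lamb1 on the other strand, 0.519 ± 0.0223. Near Lama1, Arhgap28 was at 0.661 ± 0.0136 and Ptprm at 0.108 ± 0.013. The other members had few allelic reads over all 10 samples, and their pooled B6 fractions were 0.395 for Gata4 (68 of 172 reads, 0.325 to 0.470), 0.531 for Pdgfra (68 of 128, 0.445 to 0.616), 0.696 for Sox7 (39 of 56, 0.567 to 0.801), 0.426 for Gata6 (23 of 54, 0.303 to 0.558) and 0.263 for Sox17 (5 of 19, 0.118 to 0.488).

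The allelic origin did not pass the test for change between 0 and 24 h in any of the 4 (0 called, 0 with an unadjusted p under 0.05, against a background of 2.65% of 11906 genes called). Among the 11543 autosomal genes in that test the share called was 0.364%. On the log2 scale the difference in the ratio of B6 to Cast reads was 0.09 for Lama1 (SE 0.0497, edgeR adjusted p = 0.66), -0.12 for Lamb1 (SE 0.118, adjusted p = 0.929), -0.20 for Col4a1 (SE 0.128, adjusted p = 0.801) and -1.39 for Dab2 (SE 0.869, adjusted p = 0.714). The value for Dab2 rests on 8 and 4 B6 reads before DOX and on 2 and 2 after 24 h. DESeq2 also called 0 of the 4.

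**Figure D4:**
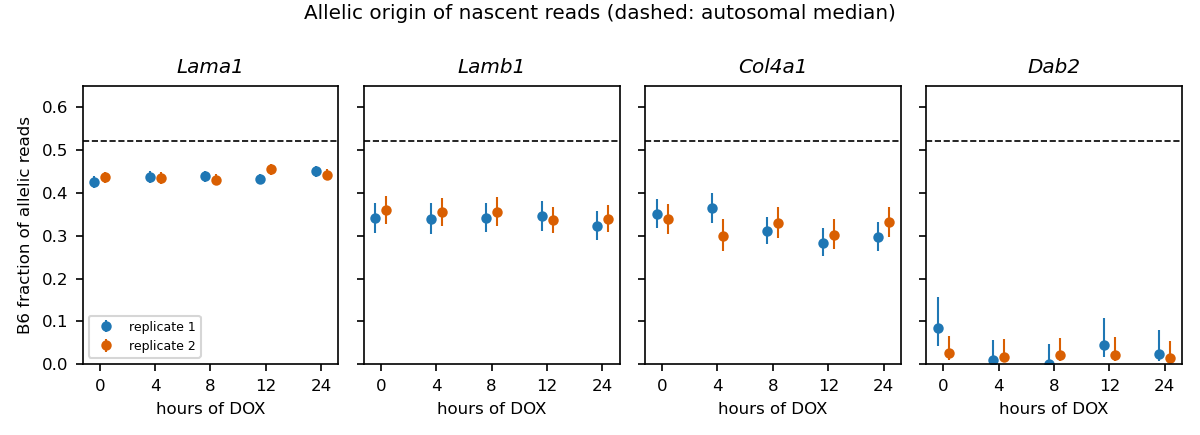
B6 fraction of allelic reads (vertical axis, from 0) against hours of DOX for Lama1, Lamb1, Col4a1 and Dab2; points are samples coloured by replicate, bars are 95% Wilson intervals and the dashed line is the autosomal median of 0.522. Every sample of each gene lies below the line, and Dab2 lies between 0 and 0.0833.

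Other genes of the lineage were read from lists. Of 8 further primitive endoderm genes, 4 were tested, and 0 were called or reached an unadjusted p under 0.05 at any time by edgeR. With the replicate block 1 had an unadjusted p under 0.05 at 4 h and 1 at 24 h. With limma-voom 1 had such a p at 24 h. The nuclear receptor Hnf4a (8.24 to 16.0 CPM) and the endocytic receptor Lrp2 (22.0 to 30.7 CPM) led this list by level, and both were lower in replicate 2, by -0.53 (SE 0.0816, edgeR adjusted p = 1.32e-05) and -0.20 (SE 0.0582, adjusted p = 0.0203) on the log2 scale. Gata5 was listed at 0 in every sample. Markers of visceral endoderm summed to 7.20 to 9.41 CPM over 10 genes, with Afp, Ttr, Apoa4 and Rbp4, which encode secreted carrier proteins of that tissue, at 0 in all 10 samples. The row of Rbp4 overlaps 3 genes on the same strand, and the other rows overlap none. Hhex and Apoa2 were its highest members per length. With time 0 of 4 tested genes were called by edgeR. An unadjusted p under 0.05 was reached by 1 at 8 h and 1 at 24 h, also with the replicate block and limma-voom. Markers of parietal endoderm summed to 79.3 to 96.9 CPM over 8 genes, of which the matrix glycoprotein Sparc made up 73.7 to 88.3. By edgeR 0 of 7 tested were called or had an unadjusted p under 0.05 at any time. With the replicate block 1 had an unadjusted p under 0.05 at 12 h and 2 at 24 h. Between replicate series 1 of the 7 was called, Fst, lower in replicate 2 (-0.51 on the log2 scale, edgeR adjusted p = 0.0389).

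How many partners of the matrix genes were called with time depended on the replicate term. Among 15 basement membrane partners and collagen enzymes 0 were called at any time by edgeR (2 with an unadjusted p under 0.05 at 24 h). With the replicate block 5 of 15 were called in the test of any time, against 6.12% of all tested genes. They were Nid1 (adjusted p = 0.00327), Serpinh1 (0.00513), and the collagen hydroxylase genes Plod2 (0.00356), P4ha1 (0.0303) and P4ha2 (0.0446). In that fit Nid1, which encodes nidogen that links laminin to collagen, rose by 0.31 on the log2 scale at 24 h (adjusted p = 0.00192, and 0.0325 by DESeq2), while Serpinh1, the collagen chaperone HSP47, fell by 0.45 on the log2 scale (adjusted p = 0.00227). P4hb and Lama5 were the highest of this list per length, and Lamc1, the gamma chain that joins Lama1 and Lamb1 products, stood at 432 to 499 CPM. Of 9 laminin and collagen receptors, Itga6, the alpha6 integrin subunit, rose by 0.34 on the log2 scale at 24 h (SE 0.0752, edgeR adjusted p = 0.0277). The other 8 were not called with time. Between replicate series 1 of the 9 was called, Itga3, lower in replicate 2 (-0.43, edgeR adjusted p = 0.00734). Of 15 tested genes of the FGF and ERK pathway that acts upstream of Gata6, Fgfr2, an FGF receptor of primitive endoderm precursors, fell by 1.15 on the log2 scale at 24 h (SE 0.126, edgeR adjusted p = 0.000123). The other 14 were not called at 24 h. An unadjusted p under 0.05 at 24 h (edgeR) was reached by 4 of the 15, Fgfr2 and, with higher values, Pdgfa (0.22), Pdgfc (0.20) and Spry2 (0.19). Pdgfa, a ligand of PDGFRA, was called over any time with the replicate block (adjusted p = 0.00377). None of 9 tested naive genes was called at any time by edgeR, 1 had an unadjusted p under 0.05 at 24 h, and with the replicate block Tbx3 rose by 0.24 on the log2 scale (adjusted p = 0.0359). The counts of genes called with time in the 3 endoderm lists, 0 by edgeR, were 0 with the replicate block, DESeq2 and limma-voom too.

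Marker lists of other cell types that such cultures could hold were low in summed CPM, which is not corrected for gene length. In mean CPM per kilobase, Olig2 (1.46), Tubb3 (0.974) and T (0.816) lay above Lamb1 (0.783). The other genes of these lists lay below Lamb1, with Nes next at 0.777. Trophoblast markers summed to 13.1 to 20.8 CPM over 8 genes, led per length by Gata2 and Cdx2. Mesoderm and primitive streak markers summed to 6.38 to 9.67 CPM over 6 genes, led by T and Gsc, and neural markers to 17.0 to 26.8 CPM over 5 genes, led by Olig2 and Tubb3, with Sox1 listed at 0 on a row that overlaps Gm5607. Fibroblast markers, for feeder cells, summed to 2.96 to 6.06 CPM over 7 genes, led by Thy1 and Col1a2, with Lum and Postn at 0 in every sample. None of the 14 tested genes of these 4 lists was called with time by edgeR, and 3 had an unadjusted p under 0.05 at 24 h. With the replicate block, 2 were called at 24 h, against 5.32% of all tested genes. They were Tfap2a at 1.01 (adjusted p = 0.000468) and Cdx2 at -0.69 (adjusted p = 0.0456) on the log2 scale. At 12 h 2 were called, against 4.94% of all tested genes, Tfap2a at 0.92 (adjusted p = 0.00269) and Tubb3 at 0.46 (adjusted p = 0.0236). Over any time the block called Tfap2a (adjusted p = 0.00366) and Tubb3 (adjusted p = 0.000496), against 6.12% of all tested genes. DESeq2 without the block called Tubb3 over any time (adjusted p = 0.0488). The value of Tubb3 at 24 h, without the block, was -0.37 (edgeR adjusted p = 0.464). Between replicate series, where 11.7% of all tested genes were called by edgeR, 7 of the 14 were called, each lower in replicate 2. They were 4 of 6 trophoblast genes, Cdx2 (-0.77, adjusted p = 0.000146), Gata3 (-0.63, adjusted p = 0.00431), Tfap2a (-0.43, adjusted p = 0.0137) and Gata2 (-0.35, adjusted p = 0.0367), the neural genes Olig2 (-0.43, adjusted p = 0.0103) and Nes (-0.30, adjusted p = 0.0269), and Col1a2 (-0.63, adjusted p = 0.012). The trophoblast gene Eomes had a value of the other sign, 0.41 (adjusted p = 0.11). Of 9 tested naive genes 2 were called, Pou5f1 (-0.21, edgeR adjusted p = 0.00142) and Prdm14 (-0.19, adjusted p = 0.00841), also lower in replicate 2. Of 15 tested FGF and ERK genes 3 were called. Spry4 (1.07, edgeR adjusted p = 1.49e-05) and Spred1 (0.25, adjusted p = 0.000667) were higher and Pdgfa (-0.16, adjusted p = 0.0167) was lower. The part of these genes in the replicate differences of the members was not tested. In bulk RNA, fewer cells of a type and less RNA per cell cannot be told apart.

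The genes whose log2 CPM followed that of Lama1, the member with the lowest p for any change, most closely over the 10 samples were Scp2 (Pearson's r = 0.961), Cpt1a (0.950) and Cyfip1 (0.948), out of 14517 genes ranked. The samples share libraries and depth, and the correlations describe likeness of pattern only.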

How the data were processed

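TT-seq libraries of 10 samples, sequenced in a single run, were analysed from gene tables. The authors aligned reads to mm10 with masked strain differences, assigned read pairs to alleles with SNPSplit and counted them by strand with featureCounts 1.5.1 over the longest refFlat span of each gene, introns included. The methods of the study name STAR as aligner for TT-seq, and the submitters' processing notes name TopHat2 2.1.0. The deposited values are raw counts of all, B6 and Cast read pairs, and a deposited B6 fraction that matched the counts in 127126 of 127126 values (within 1e-05). Spike-in RNA was added but no scaling to it was used here, so a change shared by all genes would not be seen. Starts are printed 1-based; the 9 genes are protein-coding in GENCODE, on chromosomes 18 (Gata6, 11052510 to 11085635), 14 (Gata4, 63198914 to 63245271, and Sox7, 63943706 to 63950732), 1 (Sox17, 4490928 to 4497354), 5 (Pdgfra, 75152251 to 75198206), 15 (Dab2, 6299789 to 6440709), 17 (Lama1, 67697265 to 67822645), 12 (Lamb1, 31265294 to 31329639) and 8 (Col4a1, 11198423 to 11312826).

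Total counts were fitted with edgeR 4.0.16 (R 4.3.3; quasi-likelihood, filterByExpr, TMM factors 0.970 to 1.04) with a term for time, and p-values were adjusted by Benjamini-Hochberg over all tested genes. Alleles were fitted as 20 columns with an intercept per sample. DESeq2 1.42.0 and limma 3.58.1 were alternatives, and those for the gene lists were added after seeing the data. Scripts were tested on simulated data. CPM and per-kilobase levels use the plain total count. Replicates deviated from their time means together (r = 0.142 to 0.281 for all 10 pairs of times, across genes). Replicate numbers were therefore taken to pair samples in the fits with the replicate block. The main fit did not pair samples. Intervals on counts are 95% Wilson intervals and cover counting error only.

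Members and lists were chosen with earlier results of these data known. Named were all members, list genes called at any time or, failing these, the 2 highest per length, and the 3 genes most like the member with the lowest p. Lamc1, Col4a2, the genes listed at 0, Eomes, the genes called between replicates or only with the replicate block, and the allelic neighbours were named after their values were seen.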

Additional observations from a re-analysis of the deposited data

How the results depend on the processing

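The counts of members called kept their side of the threshold under DESeq2, limma-voom, median-of-ratios scaling, no low-count filter, adjustment over autosomal genes and leaving out each sample, wherever these were run (120 counts). The allele count was 4 in these fits and 5 without 0 h replicate 2, where 1 more gene could be tested. The replicate block left 0 members called at each time and changed no member's call; its lowest adjusted p was 0.066, for Lama1 at 12 h. DESeq2 gave no adjusted p to 4 of the 8 members at 8 and 12 h and to 3 at 24 h. Of 617 log2 changes recomputed, 34 changed sign, all uncalled values, 33 of them on leaving out 1 sample, when the lone sample left at a time was assumed to vary like the others. The other was Pdgfra at 24 h with limma-voom (0.01). Ranges without each sample, for changes whose sign turned, were as follows. At 4 h they were -0.19 to 0.51 (Pdgfra), -0.34 to 0.27 (Dab2), -0.03 to 0.07 (Lama1), -0.12 to 0.22 (Lamb1), -0.19 to 0.09 (Col4a1). At 8 h they were -0.30 to 1.59 (Sox7), -0.68 to 0.02 (Pdgfra), -0.55 to 0.31 (Dab2), -0.03 to 0.14 (Lamb1), -0.12 to 0.19 (Col4a1). At 12 h they were -0.07 to 0.37 (Gata4), -0.43 to 0.27 (Pdgfra), -0.31 to 0.30 (Dab2), -0.08 to 0.17 (Lamb1), -0.27 to 0.01 (Col4a1). At 24 h they were -0.91 to 0.12 (Gata6), -0.34 to 0.36 (Pdgfra), -0.34 to 0.32 (Dab2), -0.18 to 0.10 (Col4a1). Between replicates they were -0.09 to 0.35 (Sox7). The depth limits the 4 transcription factors and Pdgfra, which had 2 to 35 counts per sample, and the cause of sign changes was not tested.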
